A study of Homo sapiens with 32 samples.

Results

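The comparison concerned JUNB-edited MCF10A cells that received TGFβ1 for 24 h and JUNB-edited cells that received solvent. It used 8 of the 32 RNA-seq libraries of the study, 4 a side, taken by the genotype, clone, replication and time point of their labels. MCF10A is an established line of human breast epithelium that does not form tumours. The edited cells, called mut, came from clones 1 and 65, each grown from a single cell after CRISPR/Cas9 editing, and each carried an extended deletion in JUNB. According to the study no wild-type JUNB protein was left in them and a smaller, weakly expressed polypeptide was. Cells received 5 ng/ml TGFβ1 for 24 h or, as the control group labelled with time point 0, the TGFβ1 solvent for 72 h, and all cells were harvested 3 days after seeding. Each clone was treated in 2 replications, and a library is named by clone and replication, such as 1-2. Libraries of 1 clone and 1 replication form a series, which pairs each treated library with a solvent library. The main fit did not use this pairing, and a separate fit with a replicate block by series did. Clones 27 and 2 with wild-type JUNB (WT), treated in the same way, served for comparison.

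TGFβ1 binds a pair of receptor kinases that phosphorylate SMAD proteins, which then enter the nucleus and act on target genes together with other transcription factors. Among these partners is activator protein 1 (AP-1), a dimer of JUN and FOS family members to which JUNB belongs. In mammary epithelial cells the cytokine slows the cell cycle and can start an epithelial-mesenchymal transition (EMT), in which junction and keratin genes give way to matrix, adhesion and protease genes.

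Total counts ranged from 41483904 to 49722991 per library, and 3 counts, taken as the floor of detection, corresponded to 0.0603 to 0.0723 CPM, counts scaled to a common library total. The 10 most abundant genes took 4.30% to 5.54% of the counts and mitochondrial genes 1.74% to 2.41%. In bulk RNA a change in the number of responding cells and a change per cell cannot be told apart. The libraries of replication 1-2 stood apart from the others along the TGFβ1 response itself. Of 624 genes called higher by at least 1 log2 unit in WT cells at 24 h, the solvent library 1-2 had the highest CPM of the 4 mut solvent libraries for 332 (53.2%), against 27.4% of all genes tested. The treated library 1-2 had the lowest CPM of the 4 treated libraries for 292 of them (46.8%, against 29.8% of all genes), and the treated library 1-1 the highest for 296 (47.4%, against 18.9%). For 821 genes called lower by at least 1 log2 unit in WT cells, the order was turned around. There the solvent library 1-2 was lowest for 315 genes (38.4%, against 26.9% of all genes). The treated library 1-2 was highest for 344 (41.9%, against 25.5%). For the counts of all calls and for a part of the genes and lists, results are therefore given with and without solvent 1-2.

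**Figure D1:**
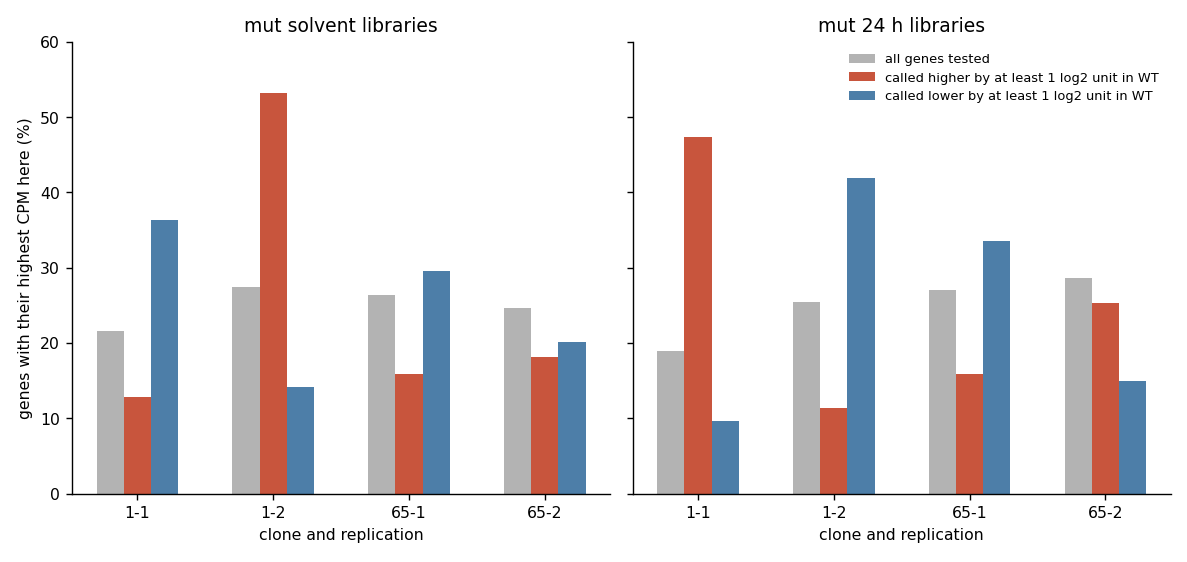
Share of genes, in percent, for which a library had the highest CPM of the 4 libraries of its group, with the mut solvent group on the left and the mut 24 h TGFβ1 group on the right. Grey bars cover all genes tested, red bars the genes called higher and blue bars those called lower by at least 1 log2 unit in WT cells, and the red bar reaches 53.2% at solvent 1-2 and 47.4% at treated 1-1.

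JUNB, the edited gene (ENSG00000171223, chromosome 19, 12791486 to 12793315, plus strand, GRCh38), was still measured in mut cells. Its RNA level in solvent was 69.2, 77.5, 128 and 172 CPM in series 1-1, 1-2, 65-1 and 65-2, the order kept for all sets of 4 values given here. After 24 h of TGFβ1 it was 253, 254, 380.2 and 518 CPM. The treated values lay above all solvent values, and clone 65 was above clone 1 in both conditions. The log2 fold change from the limma-voom fit across all genes was 1.68 ± 0.33 (SE, Benjamini-Hochberg adjusted p-value 0.000463), and 1.54 (adjusted p-value 0.00285) without solvent 1-2. A two-sided exact permutation test of 4 against 4 libraries gave p = 0.0286, the smallest value it can give. This test ignored the pairing by series and took libraries of the same clone as separate. JUNB overlaps HOOK2 on the other strand, and a gene that keeps producing RNA does not check the edit.

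At an adjusted p-value under 0.05, 3541 of 14865 genes tested (23.8%) were called in mut cells at 24 h, 1004 higher (6.75%) and 2537 lower (17.1%). Most changes were small, with a median log2 fold change of 0.53 among the higher and -0.355 among the lower genes. Only 478 called genes (3.22% of those tested) changed by at least 1 log2 unit, of which 252 rose and 226 fell, and 36 rose and 12 fell by at least 3 log2 units. All 4 series moved in the called direction for 3312 of the called genes (93.5%). The calls came from these same libraries, which favours such a share, and that over all genes tested is not given here. The 4 solvent and 4 treated libraries did not overlap for 3001 called genes (84.8%) and for 4168 of all genes tested (28%). Series 1-2 moved least for the higher genes, with a median change within the series of 0.397, while series 1-1, 65-1 and 65-2 had 0.659, 0.488 and 0.566. Without solvent 1-2, 911 genes were called higher and 2206 lower. With the replicate block by series 1470 genes were called higher and 3733 lower. The split into higher and lower calls shifted with the scaling. Over all genes the median log2 fold change was -0.098 with library sizes and -0.012 with TMM factors, and the latter called 1376 higher and 1195 lower.

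Among called genes with a mean of at least 10 CPM in the higher group and no overlap between the 4 solvent and 4 treated libraries, the largest rises included KANK4, LBH, ALOX5AP, FBLN5, SCG5, RDH16, PMEPA1, CHRNA9, COL6A3, SHISAL1 and ITGB6. Of these, KANK4, LBH, ALOX5AP, SCG5, RDH16, CHRNA9 and SHISAL1 had a mean under 10 CPM in solvent, so they met the minimum only through the group in which they were high. The genes code for intracellular scaffolds and regulators, secreted and matrix proteins, and enzymes. KANK4, an adaptor of the actin cytoskeleton (ENSG00000132854, chromosome 1, 62236165 to 62319434, minus strand), was close to silent in solvent, with 0, 3.44, 0.0631 and 0.282 CPM. It reached 19.4, 13.1, 13.7 and 13.3 CPM after TGFβ1, and solvent 1-2 stood above the other solvent libraries. The fitted log2 fold change of 6.50 ± 1.19 (adjusted p-value 0.000241) became 7.89 without solvent 1-2 and 5.19 without solvent 1-1, the library at 0, and a fitted value of a gene with a library at 0 depends on the offset given to that library. LBH, a transcription cofactor named for limb bud and heart (ENSG00000213626, chromosome 2, 30231534 to 30323730, plus strand), had 0.466, 2.92, 0.505 and 0.443 CPM in solvent and 24.4, 16.1, 16.2 and 16.4 CPM after TGFβ1. Its log2 fold change was 4.61 ± 0.55 (adjusted p-value 7.66e-07) and 5.23 without solvent 1-2.

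PMEPA1, a membrane protein that captures SMADs and dampens the pathway (ENSG00000124225, chromosome 20, 57648392 to 57711536, minus strand), had 66.1, 136, 71.4 and 73.4 CPM in solvent and 833, 600.3, 664 and 742 CPM after TGFβ1. The treated libraries lay close together, and the log2 fold change was 3.09 ± 0.24 (adjusted p-value 1.63e-09). ITGB6, the β6 integrin chain that helps to release active TGFβ from its latent complex (ENSG00000115221, chromosome 2, 160099667 to 160200313, minus strand), went from 85.9, 158, 89.7 and 95.3 to 693, 538, 598 and 649 CPM, a log2 fold change of 2.57 ± 0.22 (adjusted p-value 4.1e-09). In both genes solvent 1-2 was the highest solvent library, and all treated libraries lay above it, as the criteria required.

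FBLN5, the elastic fibre protein fibulin 5, had 8.7, 18.7, 17.3 and 13.9 CPM in solvent and 181, 83.2, 247 and 189 CPM after TGFβ1 (log2 fold change 3.54 ± 0.52, adjusted p-value 1.79e-05), and the treated library 1-2 was the lowest of the treated libraries. ALOX5AP, which presents arachidonic acid to 5-lipoxygenase, went from 0.931, 2.96, 0.842 and 0.583 to 17.2, 11.4, 12.2 and 14.1 CPM, a log2 fold change of 3.67 ± 0.52. RDH16, a retinol dehydrogenase, went from 1.95, 2.56, 1.43 and 1.73 to 19.7, 19.4, 13.8 and 13.6 CPM, a log2 fold change of 3.13 ± 0.44. In RDH16 solvent 1-2 was close to the other solvent libraries. SCG5, a chaperone of a prohormone convertase, had 7.25 CPM in solvent 1-2 and 0.508 to 0.926 CPM in the other solvent libraries, and its log2 fold change was 3.19 ± 0.79 (adjusted p-value 0.00429) with and 3.98 without that library. CHRNA9, a subunit of the nicotinic acetylcholine receptor, had 18.4 CPM in solvent 1-2 against 2.06 to 3.46 CPM in the other solvent libraries, and its log2 fold change of 2.70 ± 0.61 became 3.34 without it. COL6A3, a collagen VI chain, rose by 2.67 ± 0.57 and SHISAL1 by 2.57 ± 0.35 log2 units.

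**Figure D2:**
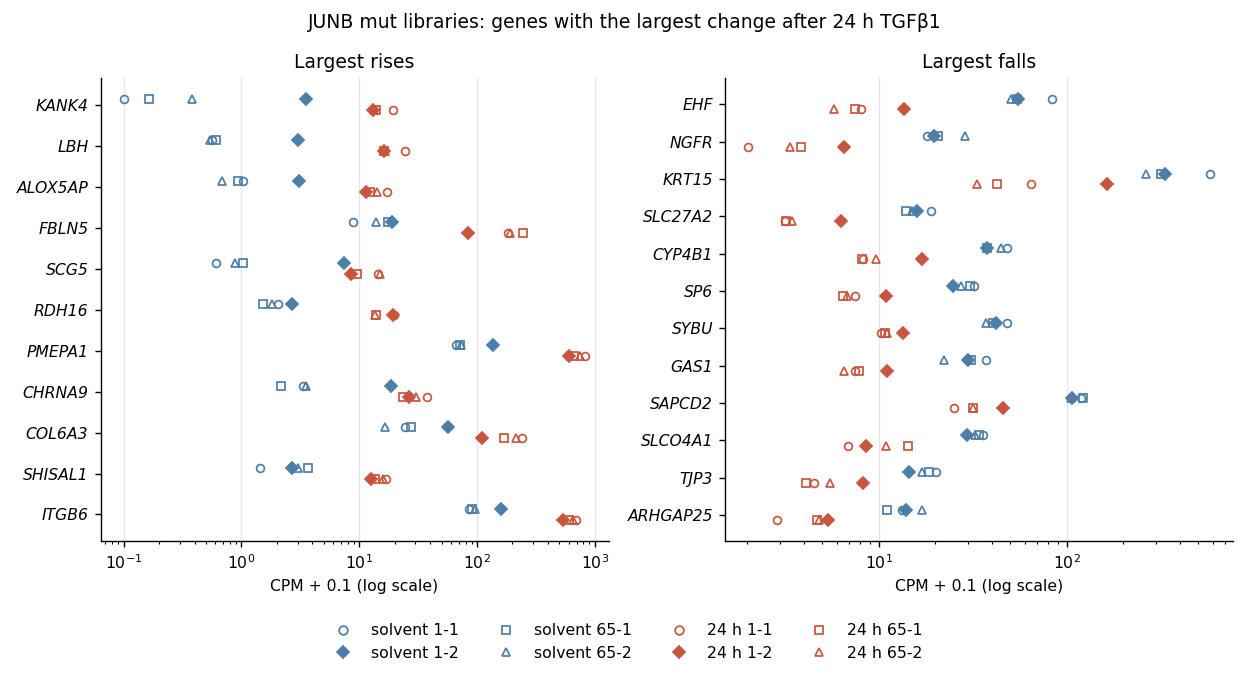
Level of the 11 genes named for the largest rises (left) and the 12 with the largest falls (right) in each of the 8 mut libraries, as CPM + 0.1 on a log axis, with solvent in blue and 24 h TGFβ1 in red and the marker giving clone and replication. The filled diamonds of replication 1-2 often lie nearest to the other group, as for ITGB6 with 158 CPM in solvent 1-2 against 85.9 to 95.3 CPM in the other solvent libraries.

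By the same criteria, the 12 genes with the largest fall were EHF, NGFR, KRT15, SLC27A2, CYP4B1, SP6, SYBU, GAS1, SAPCD2, SLCO4A1, TJP3 and ARHGAP25. Several of them are known from epithelial or basal cells. EHF, NGFR, SLC27A2, SP6, GAS1, TJP3 and ARHGAP25 had a mean under 10 CPM after TGFβ1 and met the minimum through solvent. EHF, an ETS transcription factor of epithelia (ENSG00000135373, chromosome 11, 34621093 to 34663288, plus strand), fell from 83.4, 54.8, 54.5 and 50.6 to 7.95, 13.6, 7.38 and 5.69 CPM (log2 fold change -2.85 ± 0.56, adjusted p-value 0.000506). The groups were far apart, and solvent 1-1 was the highest library. NGFR, the p75 neurotrophin receptor of basal mammary cells (ENSG00000064300, chromosome 17, 49495293 to 49515008, plus strand), went from 17.9, 19.6, 20.6 and 28.9 to 1.93, 6.42, 3.76 and 3.3 CPM (log2 fold change -2.61 ± 0.29, adjusted p-value 3.19e-07), and it overlaps an antisense gene. KRT15, a keratin of basal cells (ENSG00000171346, chromosome 17, 41513745 to 41522529, minus strand), went from 579.8, 335, 317 and 266 to 64.8, 165, 42.4 and 33.3 CPM (log2 fold change -2.52 ± 0.51, adjusted p-value 0.000747). The treated library 1-2 kept the most KRT15 and solvent 1-1 had the most of all. Likewise CYP4B1, a cytochrome P450 enzyme, went from 47.9, 37.7, 37.6 and 45 to 8.15, 16.9, 8.07 and 9.57 CPM, with the treated library 1-2 above the others.

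SP6, a zinc finger factor of ectodermal appendages (ENSG00000189120, chromosome 17, 47844908 to 47855874, minus strand), fell from 32.1, 24.7, 30.4 and 27.3 to 7.36, 10.8, 6.36 and 6.7 CPM (log2 fold change -1.90 ± 0.24, adjusted p-value 2.54e-06). Without solvent 1-2 the log2 fold change was -1.96. For the remaining genes, too, the lack of overlap between the groups was a criterion of the choice. SLC27A2, an acyl-CoA synthetase for long-chain fatty acids, had a log2 fold change of -2.07 ± 0.30. SYBU, a kinesin adaptor, had -1.90 ± 0.21, and GAS1, a growth arrest protein and hedgehog co-receptor, -1.88 ± 0.21. SLCO4A1, an organic anion transporter, had -1.77 ± 0.32 and TJP3, the tight junction protein ZO-3, -1.71 ± 0.32. ARHGAP25, a GTPase-activating protein for Rac, had -1.69 ± 0.25 and SAPCD2 -1.79 ± 0.26. SLC27A2, SLCO4A1 and TJP3 overlap genes on the other strand. Every one of these 12 falls passed the test without solvent 1-2 as well.

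Gene lists were then read by role, 26 lists with 511 entries of which 489 passed the filter on low counts and were tested, each count against the 6.75% of genes called higher and the 17.1% called lower over the whole table. Of 12 ligands and latency factors of the TGFβ pathway, 7 rose and none fell (median log2 fold change 0.73, against -0.098 for all genes). TGFB1 itself went from 94.4, 90.0, 90.4 and 85.6 to 160.5, 144, 146 and 134 CPM, a narrow and complete separation (log2 fold change 0.69 ± 0.10, adjusted p-value 8.73e-06). LTBP2, a protein of matrix microfibrils, went from 159.7, 156, 201 and 201 to 576, 467, 547 and 618 CPM (1.62 ± 0.18). THBS1, a matrix activator of latent TGFβ, rose by 1.36 ± 0.32. TGFB2 and TGFB3 had log2 fold changes of -0.21 and -0.48 and were not called. The list gave 7 rises in each fit that left out 1 library.

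The receptors and SMADs moved little and in both directions, with 2 of 13 higher and 3 lower. TGFBR3, the co-receptor betaglycan, fell from 43.8, 45.4, 39.5 and 38.5 to 13, 14.7, 18.1 and 14.9 CPM (log2 fold change -1.47 ± 0.16, adjusted p-value 2.5e-07). TGFBR2, the type II receptor, fell by 0.33 ± 0.10 log2 units and lost the call with TMM factors (adjusted p-value 0.0904), by edgeR's quasi-likelihood test and by DESeq2, while BMPR2, the type II receptor for bone morphogenetic proteins, rose by 0.61 ± 0.11. SMAD1 fell by 0.39 ± 0.06. ACVR1, a type I receptor, had 0.26 ± 0.09 and lost the call in 6 of 19 alternatives, on leaving out solvent 1-1 or 65-1 or treated 1-1, 65-1 or 65-2 among them (adjusted p-values up to 0.138). Without solvent 65-1, 5 of these genes were called lower. SMAD2, SMAD3 and SMAD4, the transducers of TGFβ, were not called, with 118 ± 5.64, 74.1 ± 5.34 and 96.6 ± 6.6 CPM in solvent and 109 ± 4.17, 74.2 ± 7.72 and 89 ± 3.68 CPM after TGFβ1 (SD, n = 4).

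Inhibitors and feedback genes of the pathway rose in 11 of 14 cases and none fell (median 0.97). SKIL, a corepressor of SMADs, went from 42.3, 56.8, 36 and 43.4 to 169.7, 131, 144 and 149 CPM (1.75 ± 0.17, adjusted p-value 5.92e-08), and its relative SKI from 139.7, 149, 146 and 145 to 279.6, 240.5, 245 and 253 CPM (0.81 ± 0.06, adjusted p-value 1.58e-09). SMAD7, the inhibitory SMAD, went from 12.8, 15.3, 12.3 and 16.5 to 25.3, 25.8, 21.6 and 26.3 CPM (0.81 ± 0.09). The activin antagonists FSTL3 and FST rose by 1.81 ± 0.16 and 2.19 ± 0.30 log2 units. LDLRAD4, another SMAD-binding membrane protein, was at 0.126 to 0.359 CPM in solvent and at 4.53, 2.81, 1.33 and 1.26 CPM after TGFβ1, and lost the call in 8 of 19 alternatives, among them each fit without a solvent library (adjusted p-values up to 0.0919). The number of rises in this list was 9 to 11 when a library was left out.

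Among 12 direct targets that were tested, 7 rose and 2 fell (median 0.70). TGFBI, a secreted adhesion protein, went from 740.0, 1837, 686 and 566 to 3303, 2127, 2155 and 2004 CPM (1.46 ± 0.23, adjusted p-value 4.72e-05), and without solvent 1-2 its log2 fold change was 1.83. CCN2, a matricellular growth factor, rose by 1.10 ± 0.24, ID3, a helix-loop-helix inhibitor, by 0.85 ± 0.15 and CDKN1A, the cell cycle inhibitor p21, by 0.27 ± 0.07, the latter without a call when treated 65-2 was left out (adjusted p-value 0.0536). The growth genes MYC and CDC25A, which TGFβ is known to repress, had log2 fold changes of -0.42 ± 0.08 and -0.54 ± 0.15, both called. Of 19 AP-1 family genes, JUNB, JUN and MAFF rose and 1 fell, and 2 fell with the replicate block by series, the fit that paired the libraries and called 9.89% of all genes higher and 25.1% lower. MAFF, a small MAF protein, had 0.38 ± 0.12 and lost the call without treated 65-2 or solvent 65-1 (adjusted p-values up to 0.0638). JUN went from 77.8, 71.9, 73 and 92 to 238, 221, 199.6 and 234 CPM (1.51 ± 0.16, adjusted p-value 1.03e-07), without overlap. FOS and FOSL1, partners of JUN proteins, had log2 fold changes of -0.06 and 0.12 and were not called.

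**Figure D3:**
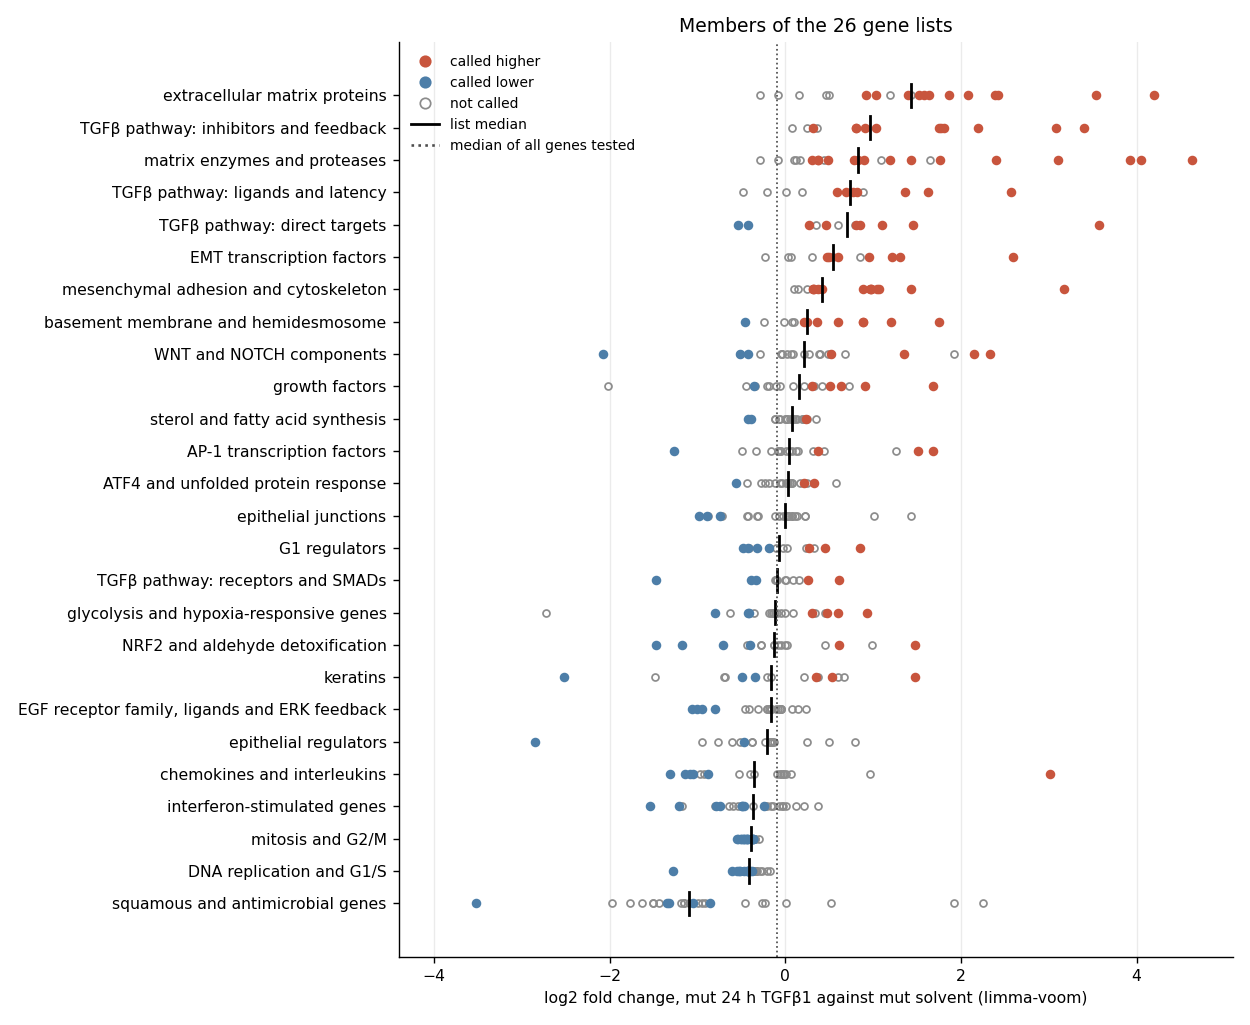
Log2 fold change of mut cells at 24 h TGFβ1 against solvent for every tested member of the 26 gene lists, ordered by list median, with called genes filled in red (higher) or blue (lower) and other genes as open circles. The list medians run from 1.43 for extracellular matrix proteins to -1.10 for squamous and antimicrobial genes, and the dotted line at -0.098 is the median of all genes.

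EMT transcription factors rose in 7 of 13 cases and none fell (median 0.55), and 6 rose without solvent 1-2. SNAI1, the repressor SNAIL, was low in solvent with 0.508, 0.674, 0.758 and 0.563 CPM and reached 4.55, 3.65, 3.42 and 3.56 CPM (2.60 ± 0.37, adjusted p-value 1.18e-05). SNAI2, its more abundant relative SLUG, went from 76.6, 102, 72.7 and 98.5 to 231, 177, 223 and 226 CPM (1.30 ± 0.15, adjusted p-value 5.01e-07). HMGA2, a chromatin architecture factor, went from 55.4, 71.5, 69.9 and 63 to 163, 115, 179 and 154 CPM (1.22 ± 0.15) and SOX4 from 35.8, 49.2, 36.7 and 35.7 to 86.1, 73.5, 68.9 and 72.8 CPM (0.95 ± 0.13). Groups did not overlap in any of these genes, as for 84.8% of called genes and 28% of all genes tested. ZEB1, ZEB2 and TWIST1 had log2 fold changes of 0.31, 0.85 and -0.23 and were not called.

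Matrix, adhesion and protease genes rose in large numbers and none of the listed ones fell. Of 19 extracellular matrix genes tested, 12 rose and none fell (median 1.43), and this count was 12 or 13 when a library was left out. FN1, fibronectin, had 249, 1413, 373 and 272 CPM in solvent and 3437, 1534, 2225 and 2297 CPM after TGFβ1. Solvent 1-2 was far above the other solvent libraries and close to the treated library of its own series. The log2 fold change was 2.39 ± 0.45 (adjusted p-value 0.000367) with and 2.96 without it. POSTN, the matrix protein periostin, showed this even more, with 0.466, 87.5, 2.5 and 1.41 CPM in solvent and 54.1, 19.4, 129 and 106 CPM after TGFβ1. The groups overlapped through solvent 1-2, and the fitted 4.20 ± 1.22 (adjusted p-value 0.0126) became 5.68 (adjusted p-value 0.0359) without it and 3.27 without solvent 1-1, while edgeR's quasi-likelihood test and DESeq2 did not call POSTN (adjusted p-values up to 0.351). The basement membrane chain COL4A1 went from 69.8, 131, 79.9 and 71.9 to 489, 319, 304 and 353 CPM (2.08 ± 0.23), and TNC, tenascin C, from 9.38, 20.8, 9.66 and 15.3 to 95, 71.2, 46.9 and 74.4 CPM (2.43 ± 0.33). Of 17 mesenchymal adhesion and cytoskeleton genes, 13 rose and none fell (median 0.42), and 10 to 12 when a library was left out. ITGB3, the β3 integrin chain, went from 0.169, 0.898, 0.337 and 0.443 to 6.63, 3.11, 2.34 and 3.21 CPM and TAGLN, the actin-binding transgelin, from 121, 131, 174 and 166 to 457, 375, 345 and 411 CPM (1.43 ± 0.31). CDH2, N-cadherin, rose by 0.98 ± 0.17 and VIM, vimentin, by 0.37 ± 0.12, and the call of VIM was lost without solvent 1-1 or 65-2 or treated 1-1 or 65-1 (adjusted p-values up to 0.0821).

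Of 23 matrix enzymes and proteases, 15 rose and none fell (median 0.83), and 11 to 15 rose when a library was left out. The replicate block called 1 lower. PLAU, the plasminogen activator urokinase, went from 83.2, 177, 85.4 and 88.1 to 417, 315, 336 and 335 CPM (1.77 ± 0.24, adjusted p-value 6.59e-06). Without solvent 1-2 its log2 fold change was 2.03. MMP9, a gelatinase, had 0.317, 2.52, 0.21 and 0.463 CPM in solvent and 13.6, 8.29, 4.41 and 8.08 CPM after TGFβ1, with solvent 1-2 again highest, and its log2 fold change of 3.92 ± 0.80 became 4.63 without that library. P4HA3, a prolyl hydroxylase of collagen, was at or near the floor in solvent with 0, 0.0449, 0.168 and 0.161 CPM and at 1.51, 0.776, 1.18 and 0.983 CPM after TGFβ1, and it lost the call without solvent 1-1 (adjusted p-value 0.0579). Basement membrane and hemidesmosome genes rose in 8 of 14 cases and fell in 1. LAMA3, a chain of the laminin that anchors basal epithelial cells, went from 822, 1463, 855 and 1030 to 2778, 1797, 2312 and 2597 CPM (1.21 ± 0.17, adjusted p-value 1.18e-05). DST, dystonin, fell by 0.45 ± 0.11 log2 units.

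Few of the listed epithelial genes were called at this time. Of 24 epithelial junction genes none rose and 3 fell, a share below the 17.1% of all genes, and TMM factors, which called 9.26% of all genes higher and 8.04% lower, called 2 higher and 2 lower. EPCAM, an epithelial adhesion molecule, went from 82.7, 74, 75.7 and 73 to 33.1, 47.1, 40.8 and 35 CPM (-0.98 ± 0.19, adjusted p-value 0.000411), and PKP2, a desmosomal plaque protein, from 176, 168, 160.2 and 169 to 89.6, 116, 102 and 96.9 CPM (-0.74 ± 0.08). CLDN7, a claudin, had -0.89 ± 0.32 (adjusted p-value 0.046) and lost the call in 13 of 19 alternatives, among them TMM factors and the fit without solvent 1-2 (adjusted p-value 0.0616). CDH1, E-cadherin, had a log2 fold change of -0.07 and was not called. The replicate block by series called 4 junction genes higher and 8 lower, beside 9.89% and 25.1% of all genes. Of 18 epithelial regulators EHF and ESRP2 fell, the latter an epithelial splicing factor that went from 72.4, 70.5, 79.1 and 71.4 to 51.2, 55.3, 53.7 and 51.7 CPM (-0.47 ± 0.08), and the replicate block called 2 higher and 7 lower.

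Keratins moved in both directions, with 3 of 15 higher and 3 lower. KRT14, a basal keratin, went from 496, 321, 614 and 488 to 1258, 839, 1782 and 1530 CPM (1.48 ± 0.32, adjusted p-value 0.00137), opposite to KRT15. KRT6A rose by 0.53 ± 0.14 and KRT18, which overlaps KRT8, fell by 0.49 ± 0.12 log2 units. KRT5, the partner of KRT14, had -0.34 ± 0.10 and lost the call with TMM factors (adjusted p-value 0.0512). With the replicate block 7 keratins were called higher and 5 lower. Squamous and antimicrobial genes had the lowest median of the lists, -1.10, yet only 5 of 25 were called, all lower, and this count was 1 with TMM factors, 2 without solvent 1-2, 4 without treated 1-2 and 1 on leaving out each of the other 6 libraries. S100A8, a calcium-binding antimicrobial protein, went from 188, 131, 111 and 143 to 45.5, 93.7, 44.8 and 49.2 CPM, with the treated library 1-2 well above the other treated libraries. Its log2 fold change of -1.34 ± 0.49 (adjusted p-value 0.0467) lost the call in 13 of 19 alternatives, that without solvent 1-2 among them (adjusted p-value 0.0679). Within the series 1-1, 1-2, 65-1 and 65-2 the list had median log2 changes of -1.20, 0.024, -1.33 and -1.39, so that series 1-2 did not share the fall. The replicate block by series called 3 of these genes higher and 15 lower, beside 9.89% and 25.1% of all genes.

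Of 19 chemokine and interleukin genes IL11 rose and 5 fell, and the replicate block called 2 higher. IL11, a cytokine of the interleukin 6 family and a known TGFβ target, and the neutrophil-attracting chemokines CXCL8, CXCL1, CXCL2 and CXCL3 are shown with the 250 bases before their transcription start (RefSeq, GRCh38.p14, 5′ to 3′), because AP-1 is known to act on IL11 and CXCL8 and because 3 of the 4 chemokine genes were called in opposite directions in mut and WT cells. The positions are chr19:55370464-55370713 (minus strand), chr4:73740319-73740568 (plus), chr4:73869143-73869392 (plus), chr4:74099196-74099445 (minus) and chr4:74038690-74038939 (minus). Capitals mark the AP-1 motif TGANTCA and the NF-κB core GGAATTTCC, of which the latter was chosen after these promoters were seen. All motifs were searched on both strands.
IL11: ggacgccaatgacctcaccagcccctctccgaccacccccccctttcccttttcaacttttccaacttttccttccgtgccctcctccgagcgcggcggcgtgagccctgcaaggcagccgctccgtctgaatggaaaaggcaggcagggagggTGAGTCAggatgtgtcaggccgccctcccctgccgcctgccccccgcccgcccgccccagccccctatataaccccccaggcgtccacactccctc
CXCL8: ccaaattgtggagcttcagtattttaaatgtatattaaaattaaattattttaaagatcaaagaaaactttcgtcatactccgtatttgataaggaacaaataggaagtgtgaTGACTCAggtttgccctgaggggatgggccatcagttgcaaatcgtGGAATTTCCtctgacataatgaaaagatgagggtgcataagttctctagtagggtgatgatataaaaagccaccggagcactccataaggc
CXCL1: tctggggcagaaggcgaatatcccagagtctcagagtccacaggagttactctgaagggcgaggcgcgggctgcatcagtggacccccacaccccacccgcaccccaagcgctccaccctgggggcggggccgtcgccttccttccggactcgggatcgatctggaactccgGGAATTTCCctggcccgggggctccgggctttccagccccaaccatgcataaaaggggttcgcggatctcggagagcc
CXCL2: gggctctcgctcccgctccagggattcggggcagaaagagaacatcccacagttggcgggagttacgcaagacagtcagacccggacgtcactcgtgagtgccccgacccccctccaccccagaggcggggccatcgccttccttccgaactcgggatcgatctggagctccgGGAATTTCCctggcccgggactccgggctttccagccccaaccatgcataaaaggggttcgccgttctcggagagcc
CXCL3: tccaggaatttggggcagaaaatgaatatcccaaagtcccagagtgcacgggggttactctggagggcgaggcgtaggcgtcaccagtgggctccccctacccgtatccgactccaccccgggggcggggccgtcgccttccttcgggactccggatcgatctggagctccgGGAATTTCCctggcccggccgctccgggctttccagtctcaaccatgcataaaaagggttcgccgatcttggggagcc
The IL11 window held TGAGTCA 90 to 96 bases before the start, and the CXCL8 window TGACTCA at 131 to 137 bases. The 4 chemokine windows shared GGAATTTCC, 69 to 91 bases before the start, and the motifs did not overlap. Of 27305 genes with promoter windows of the same length, 8.06% held TGANTCA and 0.502% the NF-κB core in any of their windows. These genes included ones that were not tested. Of the tested genes 11690 had a RefSeq promoter, and the share among them is not given here. Among genes called higher 13.1% held TGANTCA, and among those called lower 5.73%, given as a description without a test over 80.4% and 81.2% of these genes. For the NF-κB core these shares were 0.496% and 0.631%, near the 0.502% of all genes with promoter windows. The SMAD-type motif CAGACA was in 16.3% of all genes with promoter windows, 19.2% of the higher and 12.7% of the lower ones. The E-box CACCTG was in 20.6%, 24.7% and 21.6%, and the E2F motif TTTNGCGC in 1.84%, 1.36% and 3.93%.

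IL11 went from 1.19, 2.11, 0.421 and 0.945 CPM in solvent to 11.2, 6.85, 5.83 and 9.25 CPM after TGFβ1, without overlap (log2 fold change 3.01 ± 0.62, adjusted p-value 0.000819). CXCL8 (ENSG00000169429, chromosome 4, 73740519 to 73743716, plus strand) fell from 19.4, 19.1, 15.5 and 32.3 to 7.49, 11.6, 10.0 and 12 CPM (-1.05 ± 0.26, adjusted p-value 0.00449). CXCL1 (ENSG00000163739, chromosome 4, 73869393 to 73871308, plus strand) fell from 20.1, 22.1, 24.2 and 41 to 9.39, 13.1, 11.1 and 14.2 CPM (-1.14 ± 0.24, adjusted p-value 0.000905). All 4 series of both genes moved down, and solvent 65-2 was the highest solvent library. CXCL2 fell from 11.6, 11.2, 6.74 and 12 to 4.18, 5.16, 3.38 and 3.77 CPM (-1.31 ± 0.22, adjusted p-value 8.44e-05). CXCL3 was near 1 CPM, with 1.35, 1.1, 0.884 and 1.53 in solvent and 0.372, 1.14, 0.482 and 0.468 after TGFβ1, and its groups overlapped (-1.09 ± 0.33, adjusted p-value 0.0165). It lost the call without treated 1-1, treated 65-2 or solvent 65-2 and in edgeR's quasi-likelihood test (adjusted p-values up to 0.0849). LIF, a relative of IL11, went from 28.6, 22.4, 27.3 and 39.5 to 12.9, 18.8, 13.1 and 19.1 CPM (-0.88 ± 0.23), the opposite direction to IL11. The inflammatory cytokine genes IL1A and IL1B had 80.5 ± 35 and 15.8 ± 3.62 CPM in solvent and 74.8 ± 20.8 and 15.6 ± 2.99 CPM after TGFβ1 (SD, n = 4) and were not called.

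Of 22 receptors, ligands and feedback genes of the EGF receptor and ERK pathway none was called higher and 4 lower, a share near the 17.1% of all genes. SPRY2 went from 57.1, 53.7, 58.5 and 64.5 to 27.7, 27, 32.4 and 29.3 CPM (-1.01 ± 0.10, adjusted p-value 5.57e-08) and SPRY1 from 10.4, 10.2, 11.7 and 13.7 to 4.75, 5.3, 6.24 and 5.76 CPM (-1.06 ± 0.18), both inhibitors of receptor signalling to ERK. DUSP5, a nuclear ERK phosphatase, fell by 0.95 ± 0.18 and the ligand EPGN had a log2 fold change of -0.80 ± 0.17. HBEGF, another ligand, was not called (-0.31). With the replicate block, which called 25.1% of all genes lower, 9 of the 22 were called lower. Of 23 WNT and NOTCH genes 4 rose and 3 fell, and without treated 1-1 2 rose. The replicate block called 7 higher. The ligand WNT9A went from 5.46, 8.89, 7.58 and 6.7 to 19.2, 20.8, 14.7 and 17.4 CPM (1.35 ± 0.26), whereas the receptor NOTCH1 fell from 214, 208, 231 and 229.5 to 148, 137, 155 and 179.7 CPM (-0.51 ± 0.10). Of 18 growth factor genes 5 rose and 1 fell, while 3 rose without solvent 1-1 and 7 without solvent 1-2. The single fall, CSF1 (macrophage colony-stimulating factor, log2 fold change -0.36), lost its call in 8 of 19 alternatives, on leaving out solvent 1-2 or 65-2 or treated 1-1 or 65-1 and with TMM factors, edgeR's quasi-likelihood test and DESeq2 among them (adjusted p-values up to 0.175), and the replicate block called 8 higher and 4 lower. IGFBP7, an insulin-like growth factor binding protein, rose by 0.91 ± 0.13 and IGF1R, the receptor of these factors, by 0.31 ± 0.07.

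Many cell cycle genes fell, each by a small amount. Of 24 DNA replication genes none rose and 13 fell, where 17.1% of all genes were called lower. RRM2, a subunit of ribonucleotide reductase, went from 151, 144, 142 and 130.0 to 93.5, 96.5, 106 and 77.6 CPM (-0.61 ± 0.16, adjusted p-value 0.0075). The replication licensing factor CDT1 went from 50.9, 41, 55.5 and 47 to 30.6, 35.1, 36.6 and 30.1 CPM (-0.55 ± 0.14), and the factor E2F2 from 9.84, 9.46, 9.3 and 7.22 to 4.42, 3.61, 3.57 and 3.07 CPM (-1.28 ± 0.26). Of 25 mitosis genes none rose and 15 fell, and the median of -0.39 was close to that of the replication genes, -0.42. CCNB1, cyclin B1, went from 206, 189, 199.9 and 196 to 118, 155, 152 and 138 CPM (-0.50 ± 0.13, adjusted p-value 0.0077). The proliferation marker MKI67 had a log2 fold change of -0.41 and was not called. These counts depended on the fit and on single libraries. With TMM factors 6 replication and 5 mitosis genes were called lower, without solvent 1-2 12 and 14, and with the replicate block by series 22 and 25, beside 8.04% of all genes called lower with TMM factors and 25.1% with the block. Leaving out treated 1-1 or treated 65-2 left 5 mitosis genes each, solvent 1-1 8 and solvent 65-1 9, and leaving out solvent 65-1 left 8 replication genes. The list medians with TMM factors were -0.33 and -0.31. Among 14 G1 regulators 3 rose and 4 fell, with GADD45A, a stress-induced inhibitor of growth, at 0.85 ± 0.16 and CDK4, a cyclin D kinase, at -0.32 ± 0.06. Without treated 1-1 or treated 65-2, 2 of them fell.

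Metabolic and stress genes were mostly without a call. Of 23 sterol and fatty acid genes 1 rose and 2 fell, but the single rise depended on the libraries, with 3 rises without solvent 1-1, 1 without treated 65-2 and 0 on leaving out each of the other 6. TMM factors called 4 higher and the replicate block 7. ELOVL6, a fatty acid elongase, had -0.39 ± 0.10 log2 units. Of 20 genes of ATF4 and the unfolded protein response 2 rose and 1 fell, and 1 rose without solvent 1-1 or 65-2 or treated 1-1, 65-1 or 65-2, while the replicate block called 2 lower. The falling gene was DDIT4, an inhibitor of mTOR complex 1, at -0.56 ± 0.13. Among 17 NRF2 and aldehyde detoxification genes 2 rose and 4 fell, and the replicate block called 4 higher, and the aldo-keto reductases moved apart. AKR1C2 went from 150.1, 145, 134 and 112 to 402, 376, 329.8 and 391 CPM (1.48 ± 0.21, adjusted p-value 1.38e-05) and AKR1B10 from 7.58, 4.29, 4.21 and 4.85 to 1.47, 3.11, 1.42 and 1.69 CPM (-1.48 ± 0.25), and both have close paralogs that can share reads. Of 25 interferon-stimulated genes none rose and 8 fell, and 8 fell in each of the fits that left out 1 of the 8 libraries too. OAS1, an antiviral RNA sensor, went from 22.6, 15.8, 18.7 and 14.4 to 5.21, 6.55, 6.41 and 6.23 CPM (-1.54 ± 0.30, adjusted p-value 0.000482) and IFIT2 from 6.58, 4.76, 4.12 and 5.59 to 2.54, 2.69, 2.12 and 1.73 CPM (-1.20 ± 0.28). Of 21 glycolysis and hypoxia-responsive genes 4 rose and 3 fell, and the replicate block called 7 lower. HK2, a hexokinase, fell from 50.9, 53.2, 42.4 and 50.3 to 26.9, 27, 29.2 and 29.4 CPM (-0.80 ± 0.12), while PFKP, a phosphofructokinase, rose by 0.48 ± 0.07.

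To show where the mut response differed from that of WT cells, the difference of the 2 changes (mut minus WT, the interaction) was tested. WT cells at 24 h had calls for 52.1% of the genes tested. The interaction was called for 9.65% of all genes and for 746 of the 3541 mut-called genes (21.1%). Of these 746, 711 moved in the same direction in WT cells and less in mut cells, 10 moved further in mut cells and 25 had opposite signs. For 2795 mut-called genes the difference was not called. The pathway genes PMEPA1, SKIL and TGFB1 had interactions of -0.44 ± 0.35, -0.56 ± 0.25 and 0.00 ± 0.14 (SE), with adjusted p-values of 0.49, 0.172 and 0.991. Other pathway genes had a called interaction, among them SMAD7 (-0.697, adjusted p-value 0.00205) and ACVR1 (-0.5067, adjusted p-value 0.00937). SKI (0.3003, adjusted p-value 0.0284) and the target TGFBI (-1.805, adjusted p-value 0.00132) were called as well. Of 24 DNA replication genes all fell in WT cells, and 22 had a higher change in mut cells in the interaction test. Of 25 mitosis genes all fell in WT cells and 7 had such an interaction. Of all 14865 genes, 5654 were called lower in WT cells and 1147 had a called positive interaction. With TMM factors these were 3450 and 443 genes, and the list counts with TMM factors are not given here. Most interactions were positive under library-size scaling (80.0%), and 51.5% of those called with TMM factors were.

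The lower end of the interaction held NEDD9, TGM2, HMOX1 and SPOCK1. NEDD9, a focal adhesion scaffold (ENSG00000111859, chromosome 6, 11183298 to 11382348, minus strand), went from 15.8, 21.4, 35 and 39.6 to 43.2, 41.6, 50.1 and 62.3 CPM in mut cells, a change of 0.89 ± 0.24 that lost the call without solvent 1-1 (adjusted p-value 0.054). WT cells had 3.03 ± 1.35 CPM in solvent and 42.3 ± 8.22 CPM at 24 h (SD, n = 4), and the interaction was -3.00 ± 0.52 (adjusted p-value 0.000799). In solvent alone NEDD9 was higher in mut than in WT cells by 3.22 log2 units (adjusted p-value 1.61e-05). TGM2, tissue transglutaminase (ENSG00000198959, chromosome 20, 38127385 to 38166578, minus strand), which overlaps RPRD1B on the other strand, rose from 52.9, 101, 68.3 and 64.6 to 323, 213, 259.5 and 300.3 CPM in mut cells, whereas WT cells went from 29.2 ± 11 to 680.2 ± 62.3 CPM (interaction -2.66 ± 0.34, adjusted p-value 2.81e-05). SPOCK1, a matrix proteoglycan (ENSG00000152377, chromosome 5, 136975298 to 137598379, minus strand), had 38.4, 56.1, 52.1 and 55.2 CPM in solvent and 41.3, 39.7, 44.6 and 49.5 CPM after TGFβ1 in mut cells, a log2 fold change of -0.19 ± 0.15 that was not called. In WT cells it rose from 26 ± 5.56 to 103 ± 11.1 CPM (interaction -2.20 ± 0.22, adjusted p-value 1.12e-06). HMOX1, heme oxygenase 1, had an interaction of -2.44 ± 0.52 (adjusted p-value 0.00448).

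At the upper end stood SYT12, SYN3, ALDH3A1, RIPOR2 and GLS2. SYT12, a synaptotagmin of vesicle traffic (ENSG00000173227, chromosome 11, 67006778 to 67050863, plus strand), had 59, 45, 62.2 and 62.1 CPM in mut solvent and 56.5, 71.3, 56.8 and 61.7 CPM after TGFβ1, while it went from 18.9 ± 8.7 to 3.83 ± 0.983 CPM in WT cells (interaction 2.32 ± 0.47, adjusted p-value 0.00281). GLS2, a glutaminase that overlaps SPRYD4, had log2 fold changes of -1.33 in mut and -3.13 in WT cells (interaction adjusted p-value 0.00423). ALDH3A1, an aldehyde dehydrogenase, went from 267, 259.6, 285 and 291 to 85.8, 205, 105 and 121 CPM in mut cells, and its interaction of 1.94 ± 0.54 lost the call in 5 of 27 alternatives. The interactions of SYN3, which overlaps TIMP3, and RIPOR2 lost it in 8 and 13. SP6 was among the 10 genes that moved further in mut cells, with -1.90 against -0.74 in WT cells (interaction adjusted p-value 0.0295). HMGA2 was another, with 1.22 against 0.52 (interaction adjusted p-value 0.031), named after its values were seen.

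Opposite calls in the 2 genotypes were found for 9 genes, 8 of them with a mean of at least 10 CPM in some group. With TMM factors CXCL1, CXCL3, CXCL8 and CHST15 still had opposite calls, 4 of the 9. In WT cells CXCL1 went up from 18.3 ± 5.03 to 32.2 ± 7.65 CPM, and the interaction was -1.97 ± 0.32 (adjusted p-value 0.000433). CXCL8 rose from 14.4 ± 5.15 to 28.3 ± 5.06 CPM in WT cells (interaction -2.07 ± 0.35, adjusted p-value 0.000703). The other members of the set with GGAATTTCC in their promoter windows were CXCL3, the gene under 10 CPM (1.51 in WT cells, interaction -2.60 ± 0.46, adjusted p-value 0.000932), and CXCL2, which was not called in WT cells (-0.21). The interaction of CXCL2 was -1.09 ± 0.33 (adjusted p-value 0.0347, and 0.0621 without solvent 1-2). CHST15, a chondroitin sulfotransferase, had -0.42 in mut and 0.83 in WT cells, and SGK1, a stress-regulated kinase, -0.31 and 0.85. The remaining SH3PXD2A, PPARA, COPS8 and SLC29A3 changed by less than 0.5 log2 units in either genotype. SGK1, SH3PXD2A and PPARA lost the mut call in 8, 9 and 10 of 19 alternatives. With TMM factors the WT changes of COPS8 and SLC29A3 came to -0.02 and -0.07, with adjusted p-values of 0.844 and 0.552.

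**Figure D4:**
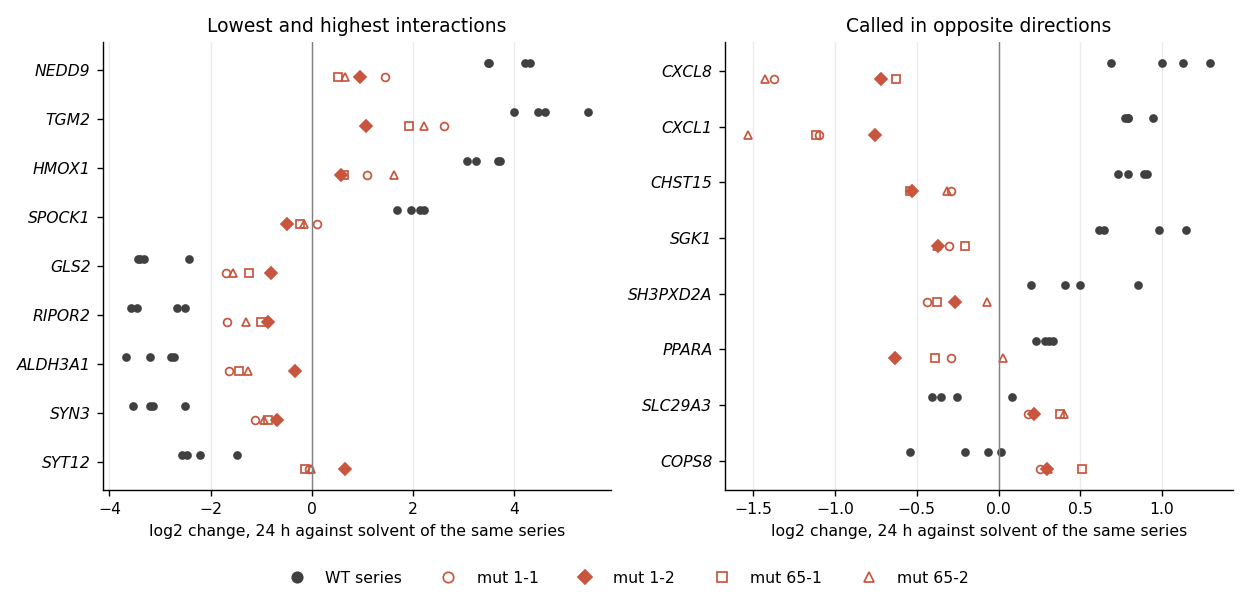
Log2 change from solvent to 24 h TGFβ1 within each series, for the 9 genes named at the lower and upper end of the interaction (left) and the 8 genes called in opposite directions (right), with the 4 mut series as red markers and the 4 WT series as dark dots. CXCL8 and CXCL1 lie below 0 in all mut series and above 0 in all WT series, and NEDD9 and TGM2 rose in both.

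The 24 h libraries were then compared directly with the 6 h and the 72 h libraries of the same clones. Both comparisons use the 24 h libraries and no solvent library. From 6 to 24 h, 464 genes changed (3.12% of those tested, 193 higher and 271 lower), and from 24 to 72 h, 195 (1.31%, 103 higher and 92 lower). FN1 had a mean of 577 CPM in solvent, which was 298 CPM without solvent 1-2, and of 605, 2373 and 6595 CPM at 6, 24 and 72 h. Its change from solvent to 6 h was not called, with a log2 fold change of 0.43 (adjusted p-value 0.625), or 0.99 (adjusted p-value 0.171) without solvent 1-2, and that from 6 to 24 h was called (1.96, adjusted p-value 0.0173). NGFR followed the opposite course with 21.8, 12.1, 3.85 and 1.82 CPM (6 to 24 h -1.70, adjusted p-value 0.00339). COL6A3, FBLN5, TGFBI, PMEPA1 and ITGB6 also rose from 6 to 24 h, by 2.03, 1.70, 1.02, 0.99 and 0.85, while KRT15 and CYP4B1 fell, with log2 fold changes of -1.95 and -1.49. By contrast RDH16 and JUNB had changes of 0.19 and 0.29 over the same interval, without a call. From 24 to 72 h POSTN rose further (2.76, adjusted p-value 0.0213), as did IGFBP7 (0.65, adjusted p-value 0.0129), and SYT12 fell (-1.29, adjusted p-value 0.00626).

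Against solvent, 4.94%, 17.1% and 16.3% of all genes were called lower after 6, 24 and 72 h. These 3 comparisons share the mut solvent libraries, and the difference between times was not tested for any list. Of 24 replication genes 2, 13 and 1 were called lower after 6, 24 and 72 h, and of 25 mitosis genes 0, 15 and 0. With TMM factors the replication counts were 1, 6 and 1 and the mitosis counts 0, 5 and 0, beside 2.06%, 8.04% and 9.91% of all genes. The replicate block called 12, 22 and 4 replication genes and 2, 25 and 1 mitosis genes lower, beside 11.6%, 25.1% and 22.9% of all genes. Epithelial junction genes had 1, 3 and 10 lower calls and squamous genes 0, 5 and 10. Without solvent 1-2, 444 genes in place of 1041 were called at 6 h, with 1.57% of all genes lower there and 14.3% at 72 h. No gene of these 4 lists was then called lower at 6 h, and 1, 0, 10 and 12 were at 72 h. The counts of genes called from 6 to 24 h and from 24 to 72 h were sensitive to single libraries. Without treated 1-1 of the 24 h group 51 genes were called from 6 to 24 h, and without treated 1-2 866 were. From 24 to 72 h the lowest count was 34, without 72 h 1-1, and the highest 347, without 72 h 65-2. With the replicate block by series, 1722 and 1404 genes were called.

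**Figure D5:**
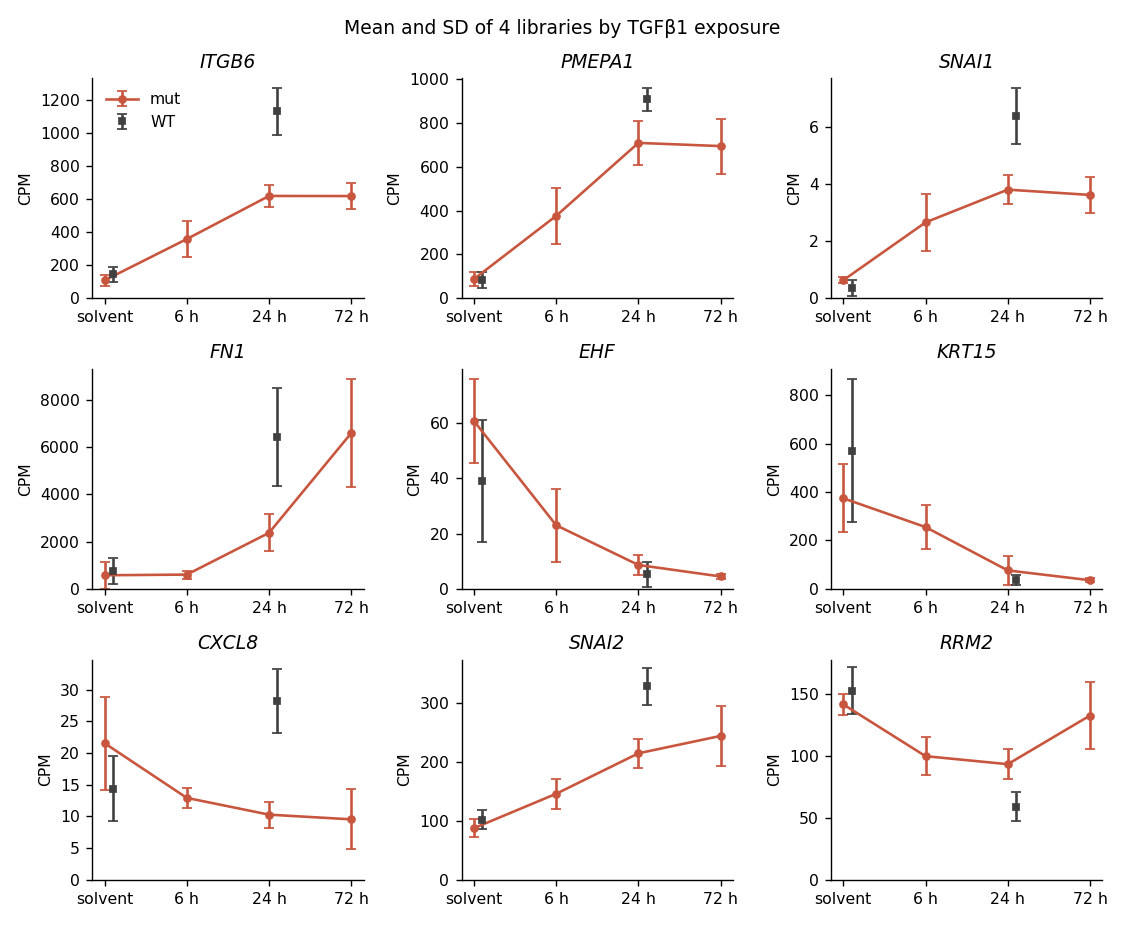
Mean CPM with SD over the 4 libraries of a group for 9 genes in mut cells in solvent and after 6, 24 and 72 h of TGFβ1 (red line), with WT cells in solvent and at 24 h as dark squares. ITGB6 goes from 107 CPM in solvent to 619.6 CPM at 24 h in mut cells, and CXCL8 from 21.6 to 10.3 CPM in mut but from 14.4 to 28.3 CPM in WT cells.

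The 2 mut clones were compared for the size of their 24 h change. No gene was called (0% of 14865, limma-voom), 487 genes had an unadjusted p-value under 0.05, and edgeR's quasi-likelihood test and DESeq2 called 0 with 474 each. Without solvent 1-2 there were 0 calls and 249 genes under 0.05. The number of libraries, 2 per clone and condition, limits what this comparison can show.

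Markers of the cells a culture could hold were summed per library. Basal mammary markers, 8 genes, came to 13080 to 14140 CPM in solvent and 15490 to 16750 CPM after TGFβ1. Of these 8 genes 2 were called higher and 1 lower at 24 h, beside 6.75% and 17.1% of all genes. Single ranges over the 8 libraries were 5360 to 8158 CPM for KRT5, 2383 to 4513 for KRT17 and 1105 to 3634 for LAMB3. KRT14 was at 321 to 1782, TP63 at 99.6 to 136 and CDH3 at 455 to 566 CPM. ITGA6 was at 601 to 844.5 and EGFR at 258 to 393 CPM. Luminal markers came to 714 to 981 and 509 to 777 CPM. Over the 8 libraries MUC1 was at 204 to 533, KRT8 at 133 to 217 and KRT18 at 134 to 229 CPM. GATA3 was at 30.46 to 39.95 and FOXA1 at 4.63 to 8.37 CPM. ESR1 was at most at 0.241 CPM and KRT19 at most at 0.315 CPM. Fibroblast markers came to 15.3 to 25.0 CPM in solvent and 33.8 to 47.9 CPM after TGFβ1, most of it from DCN and COL1A1, while COL1A2, COL3A1 and THY1 were below 0.1 CPM in every library. Endothelial markers came to 23.2 to 28.6 and 19.3 to 24.8 CPM. Among them KDR was at 17.4 to 27 CPM, TEK at 1.64 to 4.85 CPM and VWF below 0.1 CPM. Leukocyte markers came to 6.60 to 8.24 and 8.54 to 10.7 CPM. There CD68 was at 5.93 to 10.3 CPM and ITGAM at 0.145 to 0.719 CPM, with PTPRC, CD3E and LYZ below 0.1 CPM.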

How the data were processed

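RNA was sequenced from 32 cultures of MCF10A clones with a TruSeq RNA kit that does not keep the strand. According to the study's methods, the authors trimmed the reads with Trimmomatic and mapped and counted them with STAR on GRCh38 with Ensembl annotation, and they deposited raw counts per gene for 17788 genes. Tool versions and the strand setting of the counting are not given in the sources used here, so overlapping genes cannot be told apart. Beside those marked in the text, TGFB1, TGFB3, THBS1, LDLRAD4, MYC, MAFF, COL4A1, TNC, ITGB3, TAGLN, VIM, PLAU, P4HA3, CLDN7, ESRP2, HMGA2, ZEB1, IGFBP7, CDK4 and IFIT2 overlap genes on the other strand. Symbols and coordinates came from GENCODE 44, which matched 17763 genes, and promoters from RefSeq (GRCh38.p14). No blank or total rows were found.

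Counts of all 32 libraries, 8 groups of 4, were fitted with limma-voom (limma 3.58.1, edgeR 4.0.16, R 4.3.3), scaled by library size, after a filter on low counts (filterByExpr, minimum count 10, total 15) that left 14865 genes. A gene was called at a Benjamini-Hochberg adjusted p-value under 0.05. The errors of log2 fold changes are moderated standard errors. The difference between mut and WT changes, the clones and the direct comparisons of times were contrasts of the same kind of fit. CPM are counts scaled by the library total, without offset. The floor of 3 counts covers counting error only. Libraries of the same group differed beyond sampling noise (chi-square per degree of freedom at least 20.7). The methods call the replications independent biological replicates, but the 4 libraries of a group come from 2 clones.

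Libraries of the same series share clone and replication in the labels, which paired them for the fit with a replicate block by series. Across genes, deviations from the group means correlated at 0.0283 to 0.253 between the solvent and treated library of the same series, 0.0799 to 0.22 within the same clone and -0.254 to -0.0692 between clones. The value with the block is given where it moves a count of list members at 24 h by more than 1.5 times.

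Alternatives were TMM factors, edgeR's quasi-likelihood test, DESeq2 1.42.0, no filter, a mean count of at least 50, only the compared groups, the replicate block, a log2 fold change of at least 1 and leaving out each library or series 1-2. TMM factors without solvent 1-2 were added after the data were seen. The fits were tested on simulated counts. Named were JUNB, the 12 largest rises and 12 largest falls with at least 10 CPM in the higher group and no overlap, the 5 highest and 5 lowest interactions, opposite calls with at least 10 CPM in some group, and from each list the 2 largest rises and falls together with members that define its role. The comparison, the lists and this rule were chosen with earlier results of these data known. Some genes that met the rule are not reported here. No list test was made.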

Additional observations from a re-analysis of the deposited data

Results flagged for a closer look

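By Dixon's ratio on log2 CPM, 1 library was flagged against the remaining 3 in 20 of 294 groups of named genes, where chance gives about 1 in 20. Of these flags, 5 were solvent 1-2. The ratio sets the gap to the nearest value against the range of the group, so a flagged value can lie close to the others. SH3PXD2A in treated 65-2, for example, had 52.22 CPM against 49.66 to 49.84 CPM. In solvent 1-2 the outlying values were 176.9 CPM for PLAU, 136.5 CPM for PMEPA1, 49.23 CPM for SOX4, 2.92 CPM for LBH and, below the others, 44.99 CPM for SYT12. In the treated library 1-2 they were 93.67 CPM for S100A8, 158.8 CPM for KRT18 and 6.211 CPM for SLC27A2, above the others, and 2.512 CPM for ZEB2 and 177.4 CPM for SNAI2, below them. In the treated library 1-1 they were 19.36 CPM for KANK4, 24.37 CPM for LBH and 3303 CPM for TGFBI. In the remaining libraries they were 83.4 CPM for EHF in solvent 1-1, 86.8 CPM for SMAD4 and 6.735 CPM for CXCL2 in solvent 65-1, 39.88 CPM for DUSP5 and 2.534 CPM for FST in solvent 65-2, and 52.22 CPM for SH3PXD2A and 29.99 CPM for PPARA in treated 65-2.

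The 24 h change of named genes differed between mut and WT cells in the interaction test (limma-voom, adjusted p-value under 0.05, mut minus WT on the log2 scale). Among genes of the TGFβ pathway and its targets the differences were -1.805 for TGFBI, -0.697 for SMAD7, 0.3003 for SKI, -0.5067 for ACVR1, 0.6835 for MYC and 0.7514 for CDC25A. Among transcription factors they were 0.7586 for FOS, 0.7008 for HMGA2, -1.003 for SOX4, -1.153 for SP6 and -0.6044 for PPARA. Among adhesion, matrix and epithelial genes they were -2.999 for NEDD9, -2.657 for TGM2, -2.203 for SPOCK1, -1.202 for PLAU, -0.8898 for LAMA3, 0.4868 for DST, -1.247 for CHST15, -0.772 for SH3PXD2A and 0.4931 for ESRP2. For the chemokines CXCL8, CXCL1, CXCL3 and CXCL2 they were -2.072, -1.965, -2.597 and -1.094. Among signalling genes they were -1.403 for WNT9A, 1.459 for SPRY1, -0.6902 for IGF1R and -1.159 for SGK1. Among cell cycle genes they were 0.778 for RRM2, 1.068 for CDT1 and 0.6911 for CDK4. Among metabolic and other genes they were -2.435 for HMOX1, 1.935 for ALDH3A1, 1.807 for GLS2, 0.6654 for HK2, 0.556 for PDK1, 2.318 for SYT12, 2.203 for SYN3, 1.829 for RIPOR2, 0.5364 for SLC29A3 and 0.5398 for COPS8.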

How the results depend on the processing

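The 3541 calls of mut cells at 24 h became 2571 with TMM factors, 2456 in edgeR's quasi-likelihood test, 2737 in DESeq2 and 5203 with the paired fit that used a replicate block by series, 3117 without solvent 1-2, 2215 without it and with TMM factors, and 478 at a log2 fold change of at least 1. Of the main calls, 2198, 2072, 2103 and 3533 were called in the first 4 of these, and 0 changed sign. Leaving out 1 library gave 2359, without treated 1-1, to 3262 calls. The 1434 interaction calls became 860 with TMM factors, 932 in the quasi-likelihood test, 2782 with the block, 2280 with block and TMM factors, 480 without solvent 1-2 and with TMM factors, 724 without series 1-2 and 2312 with the block added to that, 134 at a log2 difference of at least 1, and 899 to 1433 without 1 library. From 6 to 24 h, 464 calls became 1722 with the block, 1577 with block and TMM factors, 2013 without series 1-2 and with the block, 59 at a log2 fold change of at least 1, and 51 to 866 without 1 library. From 24 to 72 h, 195 calls became 416 in DESeq2, 1404 with the block, 1396 with block and TMM factors, 21 without series 1-2, 1271 with the block added to that, 34 at a log2 fold change of at least 1, and 34 to 347 without 1 library. The clone comparison stayed at 0 calls in every alternative. The cause of these shifts was not tested. Of 146 values of named genes and interactions, 115 kept call and direction in every alternative and none reversed, and among list counts 175 moved by more than 1.5 times and 813 did not. Depth limits genes near the floor of 3 counts, such as KANK4, P4HA3 and LDLRAD4 in solvent.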
